A study of Mus musculus with 8 samples.

Results

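Matrix metalloproteinases and their inhibitors were followed in immune cells of healing mouse skin through 8 genes, Mmp9, Mmp12, Mmp13, Mmp14, Mmp19, Timp1, Timp2 and Adam8, chosen by name out of the 21742 non-mitochondrial genes in the tables. All 8 had at least 1 unique molecular identifier (UMI, a tag that counts captured transcripts) in every library. The skin of male C57BL/6J mice received a full-thickness wound of 5 mm, and cells sorted for the leukocyte antigen CD45 were sequenced singly on days 1, 3, 5 and 7. Diabetic mice had been given streptozotocin (STZ), a toxin for insulin-producing cells, at 120 mg/kg at 4 weeks of age and had a blood glucose of at least 16.5 mmol/L; control mice were wild type. Each of the 8 libraries, 1 per group and day, pooled 5 mice, so the spread between mice is not seen and the STZ model speaks for toxin-induced diabetes in young males only.

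Matrix metalloproteinases are zinc enzymes made as inactive precursors that cut proteins of the extracellular matrix and also chemokines and cell surface proteins. Mmp9 is a gelatinase stored in neutrophil granules and abundant in osteoclasts, Mmp12 an elastase first described in macrophages, Mmp13 the main collagenase of rodents, and Mmp14 a membrane-anchored enzyme that cleaves collagen and activates other members. Mmp19 is a secreted member that cuts basement membrane proteins. Timp1 and Timp2 bind these enzymes and block them, Timp1 pairing well with Mmp9, and Timp2 also taking part in activation at the cell surface together with Mmp14. Adam8 is a membrane-anchored relative of leukocytes that sheds adhesion molecules and receptors. In wounds these enzymes clear damaged matrix and let cells move, and prolonged high activity is a known trait of chronic wounds.

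In the GRCm38 annotation, the genes lie apart except for a pair. Mmp13 (ENSMUSG00000050578.10, chr9:7272514-7283331, plus strand) and Mmp12 (ENSMUSG00000049723.14, chr9:7344381-7369499, plus strand) open a cluster on chromosome 9 that goes on with Mmp1b, Mmp3, the polymorphic pseudogene Mmp1a, Mmp10, Mmp8, Mmp27, Mmp20 and Mmp7. Mmp9 is at chr2:164940780-164955850, Adam8 at chr7:139978932-139992562, Mmp19 at chr10:128790910-128800824, Timp2 at chr11:118301069-118355740 and Mmp14 at chr14:54431612-54445364. Timp1 (chrX:20870166-20874735) lies inside Syn1 on the opposite strand, the end of Mmp12 overlaps Mmp1b, Mmp19 overlaps Tmem198b and Gm47093, and Timp2 overlaps Cep295nl on its own strand. Whether counting used the strand is not given in the sources used here, so reads of the pairs on opposite strands could be shared, and those of Timp2 and Cep295nl could be under either setting, although Mmp1b had only 12 UMIs over all cells against 16972 for Mmp12.

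The neighbours Mmp13 and Mmp12 each have a RefSeq start with the letters TGANTCA upstream, the core bound by AP-1 factors, which are induced by injury and cytokines. RefSeq promoters (GRCm38.p6) were at hand for 6 of the 8 genes with 7 starts, and 2 of the 7 windows of 250 bases before the start held this motif, against 6.75% of 32851 windows of all genes. Mmp9 and Mmp19 were not examined. Mmp12 has 2 starts, of which the one at the start of the gene given above (window chr9:7344247-7344396) held no match, and the match belongs to the other, which lies inside the gene's span. The motif reads the same on both strands. The 150 bases before the start are shown for these 2 starts (Mmp13 at chr9:7272364-7272513 and Mmp12 at chr9:7347224-7347373, both plus strand), with the match in capitals. It begins 35 bases before the start of Mmp13 and 44 bases before that of Mmp12. A match is a description of the letters and not a measured site.
Mmp13: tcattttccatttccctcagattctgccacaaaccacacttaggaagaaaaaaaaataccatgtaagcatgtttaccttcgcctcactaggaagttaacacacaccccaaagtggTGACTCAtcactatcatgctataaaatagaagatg
Mmp12: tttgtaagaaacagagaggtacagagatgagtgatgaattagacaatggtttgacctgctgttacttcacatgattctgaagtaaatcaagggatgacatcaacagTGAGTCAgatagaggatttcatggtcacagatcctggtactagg

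After filtering, the libraries held 3273 to 5440 cells with 18814802 to 32956113 UMIs each and a median of 2573 to 8219 UMIs per cell, the highest median being that of the control library of day 5. Ptprc, the gene of CD45, had UMIs in 70.5% to 86.1% of cells. Of 35215 cells in 20 clusters, 13866 were named neutrophil-like, 6783 macrophage-like, 4754 monocyte-like, 2850 dendritic-like, 2418 T cell-like and 390 osteoclast-like, with 574 NK cell-like, 49 fibroblast-like and 152 mast cell-like cells beside them, and 3379 shallow cells led by Gm26917 and Malat1 stayed unnamed. No Mmp, Timp, Adam or Adamts gene was used to draw the clusters, and a class against the others is described and not tested. Levels are UMIs per 1000000 UMIs (CPM) of the same cells, with exact Poisson intervals that cover counting error only. A CPM of UMIs depends on capture of each transcript, so levels are compared across cells for a gene and not between genes. The level of a whole library mixes how many cells of a class it holds with how much each cell carries. Values in T cell-like cells are given for comparison, and the source of the UMIs there, free RNA included, was not tested. Class levels are given only for libraries with at least 20 cells of the class.

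**Figure D1:**
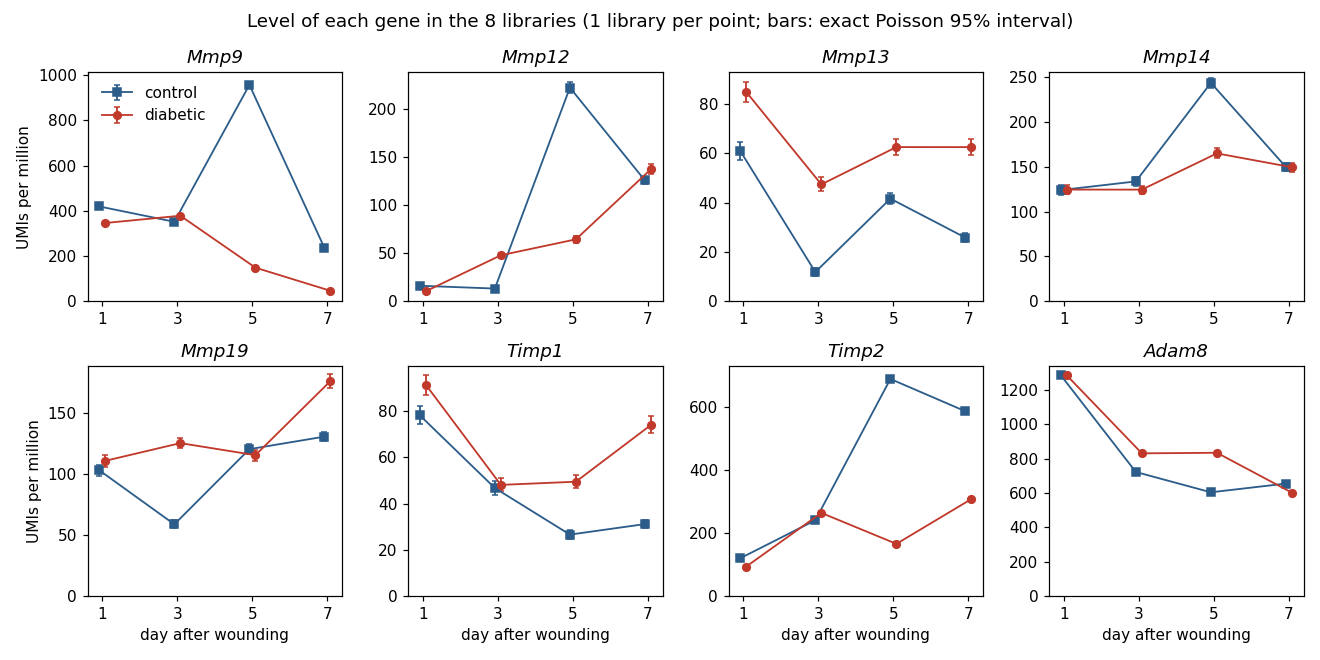
Level of each of the 8 genes (CPM, linear axis from 0) against the day after wounding in diabetic (red circles) and control libraries (blue squares), 1 library per point, with exact Poisson 95% intervals. Mmp9 of the control library of day 5 stands at 956 and that of diabetic day 7 at 46.8, and Adam8 is highest on day 1 in both groups.

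The gelatinase Mmp9 was the gene with the widest gap between groups late in healing. In diabetic wounds its level was 346, 378, 149 and 46.8 CPM on days 1, 3, 5 and 7, and in control wounds 419, 352, 956 and 236 CPM. The groups lay close on days 1 and 3, and the control library was above the diabetic one 6.41-fold on day 5 (interval 6.18 to 6.66) and 5.05-fold on day 7 (4.72 to 5.39). Across the 4 days the diabetic minus control difference was -1.26 on the log2 scale (SE 0.53), with an adjusted p of 0.45 in edgeR's quasi-likelihood test with the day as a block. In these tests the days stand in for replicates, with 1 pool of mice per group and day.

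Most Mmp9 UMIs came from 2 kinds of cell. Osteoclast-like cells, named from marker transcripts such as Ctsk, Acp5 and Atp6v0d2, had the highest level, at 1103 CPM in control day 3, 3571 in control day 5, 2505 in control day 7 and 3042 in diabetic day 3, the 4 libraries with at least 20 such cells. They were 1.11% of all cells and held 40.3% of all Mmp9 UMIs, and 255 of the 390 came from the control library of day 5, so the pooled share rests largely on that library. Within libraries their level lay above that of neutrophil-like cells without overlap in diabetic day 3 (692 CPM in neutrophil-like cells), control day 5 (733 CPM) and control day 7 (399 CPM). Neutrophil-like cells held 41.4% of the UMIs and were the highest class in the other 4 libraries among classes of at least 20 cells. Below that size, 12 osteoclast-like cells held 387 Mmp9 UMIs in diabetic day 5 and 2 cells held 65 in diabetic day 7. In control day 3 the intervals of both classes overlapped. Of the Mmp9 UMIs of control day 5, 75.5% lay in the osteoclast-like cells and 2.92% in neutrophil-like cells, whereas neutrophil-like cells held 94.1% in diabetic day 1 and 89.9% in control day 1. Macrophage-like cells held more than neutrophil-like cells in control day 5 (12.3%) and in control day 7 (30.7% against 26.4%). Without the osteoclast-like cells the level was 133 CPM in diabetic and 293 CPM in control wounds on day 5, a control excess of 2.21-fold (2.12 to 2.31), and on day 7 of 3.47-fold (3.23 to 3.72). On day 3 the direction turned, from 378 against 352 CPM with all cells to 263 against 320.5 CPM without them.

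**Figure D2:**
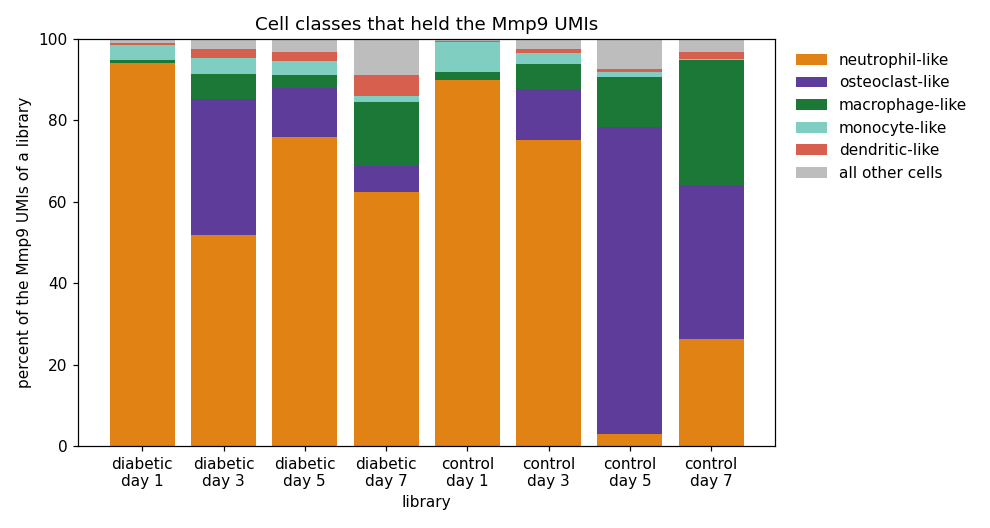
Percent of the Mmp9 UMIs of each library (bars, summing to 100) held by each cell class. Neutrophil-like cells (orange) make up 94.1% in diabetic day 1, and osteoclast-like cells (purple) 75.5% in control day 5 and 37.8% in control day 7.

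Within neutrophil-like cells, Mmp9 was at 889, 692, 396 and 202 CPM in diabetic wounds and at 945, 1095, 733 and 399 CPM in control wounds over the 4 days. The diabetic level was the lower one on every day, with a control excess of 1.06-fold on day 1 and 1.58-, 1.85- and 1.97-fold afterwards, and the group difference of -0.49 (SE 0.24) had an adjusted p of 0.52 in edgeR. With cells named one by one by their own markers, the levels were 938, 752, 464 and 431 CPM in diabetic and 1003, 1212, 967 and 523 CPM in control wounds, so the excess of day 7 was 1.21-fold. The clusters within the class differed by group. One led by Il23a, Il1a and Ccl3 held 664 of 2694 neutrophil-like cells in diabetic against 165 of 2021 in control wounds on day 3, and 739 of 1930 against 16 of 271 on day 5, and the NEU-3 cluster held 309 against 35 on day 3. On day 7, 1 cluster, led by Ighg2b, held 895 of 1074 neutrophil-like cells in control and 321 of 771 in diabetic wounds. In macrophage-like cells, at 21.7 to 214 CPM, the difference was -1.38 (SE 0.31), with an unadjusted p of 0.0011 and an adjusted p of 0.15 in edgeR. The 6 osteoclast markers in these cells summed to 55.8, 216, 165 and 270.4 CPM in diabetic and 42.8, 186, 797 and 462 CPM in control wounds, with Calcr at 0 in all libraries but control day 7, and their part in the difference was not tested. After thinning each cell to 1000 UMIs, 20.7% to 54.6% of neutrophil-like cells had an Mmp9 UMI (32.7% to 73.1% before thinning), against 1.37% to 15.6% of T cell-like cells (5.42% to 46.9%), whose median depth per library was 3449 to 4398 UMIs against 2156 to 2890.0 UMIs in neutrophil-like cells. Thinning left out 788 of the 13866 neutrophil-like and 144 of the 2418 T cell-like cells. Neutrophil-like cells of the NEU-3 cluster, led by the granule genes Ngp, Retnlg and Wfdc21, had 1403, 1047 and 515 CPM in diabetic days 1, 3 and 5 and 1382 and 1324 CPM in control days 1 and 3, the libraries with at least 20 of them, and were the highest neutrophil-like cluster in diabetic day 1 and in both control libraries. Over all libraries, 87 of the 100 cells with the most Mmp9 UMIs, not scaled for depth, were osteoclast-like, a cluster with a median of 22553 UMIs per cell, and 72 of the 100 came from control day 5. In the control library of day 5, T cell-like cells stood at 157 CPM and monocyte-like cells at 304 CPM, each the highest value of that class. The 802 unnamed shallow cells of that library stood at 843 CPM, also their highest value and above the 733 CPM of its neutrophil-like cells. Mmp9 UMIs in other classes of that library thus go with a high level in its T cell-like and unnamed cells, and the part of free RNA was not tested.

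The elastase Mmp12 had low levels early and higher ones late in both groups. Its level was 10.6, 48.0, 64.5 and 137 CPM in diabetic wounds and 16.3, 13.4, 222 and 126 CPM in control wounds. The diabetic library was 3.59-fold (3.14 to 4.11) higher on day 3, and the control library 3.44-fold (3.25 to 3.65) higher on day 5. The slope over days, with the group as a block, was 0.54 log2 per day (SE 0.13, adjusted p of 0.041 in edgeR), and no group difference passed the test (-0.11, SE 0.55, adjusted p of 0.94), whose sign turned to 0.44 without the control library of day 5. Without day 1 the slope was 0.45 with an adjusted p of 0.72 and without day 7 it was 0.72 with an adjusted p of 0.16. These fits called 0 of 13818 and 1 of 13282 genes, so the loss of the call is not particular to Mmp12.

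Macrophage-like cells held 45.7% of Mmp12 UMIs, neutrophil-like cells 19.7% and monocyte-like cells 13.7%. In macrophage-like cells the level was 16.5, 23.6, 46.1 and 140.3 CPM in diabetic and 6.36, 27.7, 237 and 128 CPM in control wounds, with a slope of 0.66 per day (SE 0.12, adjusted p of 0.020 in edgeR). The make-up of the class changed over the same days, as the cluster led by Gdf15, Igf1 and Apoe went from 12 of 186 cells on day 1 to 747 of 945 on day 7 in diabetic and from 11 of 254 to 2092 of 2351 in control wounds, and its part in the slope was not tested. In monocyte-like cells it was 19.1, 129, 90.5 and 363 CPM in diabetic and 31.5, 21.2, 151.5 and 215 CPM in control wounds, with a slope of 0.55 per day (SE 0.094, adjusted p of 0.029 in edgeR). Both slopes lost the call without day 1 (adjusted p of 0.22 and 0.25 in edgeR), and that of monocyte-like cells also without day 7 (adjusted p of 0.29). Those fits called 61 genes in macrophage-like cells, and 5 without day 1 and 7 without day 7 in monocyte-like cells. Monocyte-like cells of the last days were few, 36 in control day 7 and 99 in control day 5. The 10 fullest monocyte-like cells held 53.9% to 93.8% of the Mmp12 UMIs of their class, with 399 of 527 in diabetic day 7, 118 of 141 in control day 5 and 61 of 65 in control day 7. Among macrophage-like cells the 10 fullest held 1702 of 3835 UMIs in control day 5 and 1072 of 2514 in control day 7, and 5 and 6 of them were named osteoclast one by one. T cell-like cells had 0 Mmp12 UMIs in 109 cells of diabetic day 1, 102 of control day 1 and 248 of control day 3, which allows a share of cells with a UMI of up to 2.75%, 2.94% and 1.21%, and reached 93.4 CPM in control day 5, where 1 cell gave 65 of 89 UMIs. The limits for 0 UMIs hold for cells with a UMI and not for cells that carry the transcript.

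Mmp12 transcripts were concentrated in few cells. Over all libraries, 100 cells held 55.5% of the UMIs, and the fullest cell had 507. In the neutrophil-like class the level was 1.29, 6.65, 102.5 and 298 CPM in diabetic and 2.40, 3.27, 584 and 203 CPM in control wounds, a slope of 1.28 per day (SE 0.24, adjusted p of 0.0016 in edgeR) whose adjusted p was 0.072 without day 1 and 0.0025 without day 7, yet the 10 cells with the most Mmp12 held 92.7% of its UMIs in diabetic day 5, 84.1% in diabetic day 7, 96.2% in control day 5 and 73.9% in control day 7. A single cell gave 507 of the 628 UMIs of diabetic day 5. These 10 cells were deep, with medians of 16699, 19134, 16929 and 24082 UMIs against 2351 to 2884.5 in the other neutrophil-like cells of those libraries, and their neutrophil markers summed to 546 to 4171 CPM against 16322 to 28953 CPM. When cells were named one by one by their own markers, 3, 0, 0 and 0 of these 10 cells were named neutrophil, and 3, 5, 8 and 6 osteoclast. Without them the level was 7.68, 50.7, 26.4 and 55.6 CPM, beside 6.02, 29.8, 93.4 and 24.5 CPM in T cell-like cells. Cells named neutrophil one by one had 1.11, 6.11, 9.17 and 35.4 CPM in diabetic and 2.29, 2.67, 24.2 and 35.9 CPM in control wounds, with a slope of 0.65 per day (adjusted p of 0.00033 in edgeR, where 8.44% of all genes passed). Macrophage markers in these same cells summed to 468 and 551 CPM on day 1 and 3437 and 5597 CPM on day 7 in diabetic and control wounds, and their part in the slope was not tested.

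**Figure D3:**
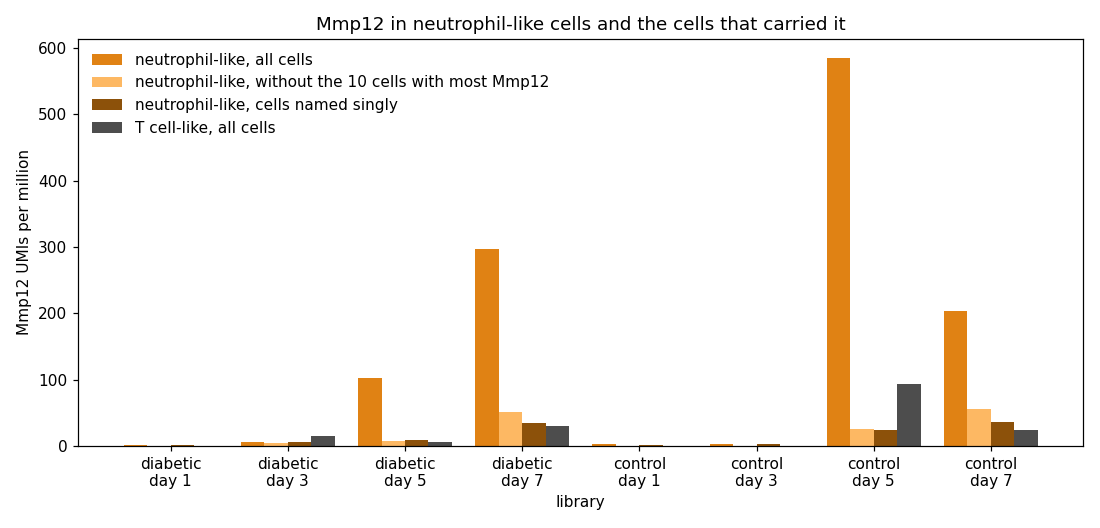
Mmp12 level (CPM, linear axis from 0) by library in neutrophil-like cells as clustered, in the same class without its 10 fullest cells, in cells named neutrophil one by one, and in T cell-like cells. The tall bars of diabetic days 5 and 7 and control days 5 and 7 (102.5, 298, 584 and 203) shrink to 7.68, 50.7, 26.4 and 55.6 without 10 cells each.

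The collagenase Mmp13 was higher in diabetic wounds on all 4 days. Its level was 84.7, 47.3, 62.5 and 62.4 CPM in diabetic and 60.9, 11.9, 41.6 and 25.8 CPM in control wounds, that is 1.39-fold (1.29 to 1.5), 3.99-fold (3.47 to 4.60), 1.5-fold (1.39 to 1.62) and 2.42-fold (2.22 to 2.64) in favour of diabetic wounds. The diabetic values, 47.3 to 84.7, overlap the control values, 11.9 to 60.9. The difference was 1.11 on the log2 scale (SE 0.26), with an unadjusted p of 0.0049 and an adjusted p of 0.45 in edgeR's quasi-likelihood test, and DESeq2 called it (1.12, adjusted p of 0.034). The estimate was above 0 in all 4 classes tested, at 1.03 in neutrophil-like (SE 0.24), 0.76 in monocyte-like (SE 0.28), 0.95 in macrophage-like (SE 0.23) and 1.22 in dendritic-like cells (SE 0.27), with adjusted p of 0.37, 0.67, 0.17 and 0.50 in edgeR. These classes come from the same 8 libraries, so their signs are not independent. Dendritic-like cells had 4.74 to 28.7 CPM and T cell-like cells 3.18 to 23.1 CPM. In diabetic day 5, 1 neutrophil-like cell gave 100 of the 140 Mmp13 UMIs of its cluster. Cells named neutrophil one by one had 15.2, 10.3, 16.5 and 12.2 CPM in diabetic and 11.3, 3.21, 9.67 and 11.7 CPM in control wounds. With the mean over cells of each cell's CPM in place of the sum, the whole-library ratio of day 5 was 0.96, on the other side of 1. Monocyte-like cells held 53.6% of Mmp13 UMIs and were 33.6%, 11.5%, 13.9% and 4.81% of cells in diabetic wounds. In control wounds they were 26.2%, 9.98%, 3.02% and 0.774%, and the part of these shares in the whole-library gap was not tested.

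Monocyte-like cells were the highest class for Mmp13 in all 8 libraries and held 53.6% of its UMIs in 13.5% of the cells, although in diabetic day 5 their interval overlapped that of macrophage-like cells (126 CPM). There, 1 cell gave 144 of the 219 Mmp13 UMIs of the macrophage-like cluster led by Pf4, Ms4a7 and Gpnmb. Without the 10 fullest cells the highest class was not the same in every library. The level of monocyte-like cells was 164, 148, 144 and 365 CPM in diabetic and 121, 32.8, 128 and 327 CPM in control wounds, against 3.18 to 23.1 CPM in T cell-like cells. This gene also sat in few cells, since 100 cells held 51.7% of its UMIs, 69 of them monocyte-like. The 10 fullest cells held between 37.1% (day 1, diabetic) and 98.99% (day 7, control) of what the monocyte-like cells carried, and without them the levels of monocyte-like cells were 104.5, 52.6, 36.2 and 33.7 CPM in diabetic and 46.1, 3.19, 9.70 and 4.54 CPM in control wounds. These 10 were a larger part of the small control classes, 10 of 36 cells on day 7 and 10 of 99 on day 5 against 10 of 176 and 10 of 581 in diabetic wounds, so the trimmed levels are not compared between groups. By cluster, monocyte-like cells led by the interferon-induced genes Ifit2, Rsad2 and Ifi205 had 348 CPM over 810 cells, the MON-1 cluster 149.6 CPM over 2080 and the one led by Vcan, Chil3 and Plac8 55.0 CPM over 1864. The order was not the same in every library. The interferon cluster led on day 1, at 423 against 107 CPM in the MON-1 cluster in diabetic and 336 against 78.1 CPM in control wounds, and in diabetic day 7, at 1247 against 90.2 CPM, where 10 cells held 444 of its 446 UMIs. The MON-1 cluster was higher in diabetic day 3 (275 against 120.0 CPM), diabetic day 5 (265 against 49.6 CPM) and control day 3 (99.8 against 30.7 CPM).

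Mmp14, the membrane-anchored collagenase and activator, had close levels in both groups except on day 5. Its level was 125, 124, 165 and 149 CPM in diabetic and 124, 134, 243 and 149.6 CPM in control wounds, and the intervals of the ratio took in 1 on days 1 and 7. On day 5 the control library was 1.48-fold higher (1.42 to 1.54), and 1.27-fold without osteoclast-like cells (1.22 to 1.33). The group difference was -0.13 (SE 0.12, adjusted p of 0.66 in edgeR). Fibroblast-like cells of control day 7, 20 in number, had 714 CPM, osteoclast-like cells 340.4 to 429.7, monocyte-like cells 157 to 383, macrophage-like cells 95.1 to 259.6 and T cell-like cells 18.1 to 78.7 CPM. Of the UMIs, 37.6% came from macrophage-like and 29.2% from monocyte-like cells, and after thinning 11.6% to 29.3% of monocyte-like cells had one, against 0.92% to 4.54% of T cell-like cells (32.3% to 75.8% and 3.23% to 16.9% before thinning).

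Mmp19, the basement membrane protease, was higher in diabetic wounds on days 1, 3 and 7. It stood at 111, 125, 115 and 176 CPM in diabetic and 103, 58.6, 120.1 and 130.4 CPM in control wounds, with a diabetic excess of 2.13-fold (1.995 to 2.28) on day 3 and 1.35-fold (1.29 to 1.41) on day 7, and a ratio on day 5 whose interval took in 1. The difference was 0.43 (SE 0.20, adjusted p of 0.47 in edgeR). In monocyte-like cells, the highest class in 7 of 8 libraries, the level was 197, 232, 267 and 302.5 CPM in diabetic and 189, 108, 129 and 162 CPM in control wounds. The lowest diabetic value, 197 CPM, lay close to the highest control value, 189 CPM. How many of all genes separate the groups in this way was not counted. Control days 5 and 7 had only 99 and 36 of these cells. In both libraries of day 7 the interval of monocyte-like cells overlapped that of macrophage-like cells. The class was made up of different clusters by group: on day 3 the MON-1 cluster had 295 cells and the one led by Vcan, Chil3 and Plac8 had 257 in diabetic against 95 and 310 in control wounds, and on day 5 they had 204 and 315 against 65 and 19. In macrophage-like cells it was 137, 188, 173 and 266 CPM in diabetic and 114, 83.0, 134 and 154 CPM in control wounds, where the groups overlap. The differences in these classes, 0.81 (SE 0.18) and 0.68 (SE 0.15), had unadjusted p of 8.4e-04 and 6.8e-04 and adjusted p of 0.44 and 0.14 in edgeR, and DESeq2 called both (adjusted p of 0.040 and 0.012).

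In neutrophil-like cells as clustered, Mmp14 and Mmp19 rose over days, by 0.45 (SE 0.065, adjusted p of 5.2e-04) and 0.32 log2 per day (SE 0.069, adjusted p of 0.0034, both in edgeR). Without day 1 both kept the call (adjusted p of 0.021 and 0.024), and without day 7 Mmp14 kept it (0.023) and Mmp19 lost it (0.16). Mmp14 went from 12.2 and 12.7 CPM on day 1 to 136 and 131 CPM on day 7 in diabetic and control wounds, and Mmp19 from 21.8 and 21.2 to 174 and 119 CPM. The 12 macrophage markers went the same way in these cells, their sum being 604 and 799 CPM on day 1 and 11057 and 12517 CPM on day 7, and that of the 10 neutrophil markers 66099 and 53515 CPM on day 1 and 17058 and 15600 CPM on day 7. The part of these transcripts in the slopes was not tested. When cells were named one by one, the slopes were 0.08 and 0.09 (adjusted p of 0.55 and 0.44 in edgeR), with Mmp14 at 4.39 to 16.9 CPM in all 8 libraries. The cluster led by Ighg2b, Igkc and Cxcr2 held 895 of the 1074 neutrophil-like cells of control day 7 and 321 of the 771 of diabetic day 7, against 38 of 2456 and 28 of 2649 on day 1.

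The inhibitors differed in direction between groups on days 5 and 7. Timp1 was at 91.5, 48.1, 49.5 and 74.1 CPM in diabetic and 78.3, 46.8, 26.6 and 31.1 CPM in control wounds, so the diabetic library was 1.86-fold (1.70 to 2.05) higher on day 5 and 2.38-fold (2.20 to 2.58) on day 7, and the ratio of day 3 had an interval that took in 1. Timp2 was at 93.4, 263.9, 165 and 308 CPM in diabetic and 119.8, 240.6, 689.8 and 587 CPM in control wounds, and the control library was 4.17-fold (4.02 to 4.32) higher on day 5 and 1.91-fold (1.85 to 1.959) on day 7. Neither difference passed the test, at 0.64 (SE 0.22) for Timp1 and -0.76 (SE 0.33) for Timp2, with adjusted p of 0.45 for both in edgeR. The slopes over days, -0.22 per day (SE 0.067) for Timp1 and 0.24 per day (SE 0.074) for Timp2, had adjusted p of 0.070 and 0.069 in edgeR.

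Timp1 UMIs came from monocyte-like (36.1%), macrophage-like (25.1%) and dendritic-like cells (17.5%), and 7.71% of them from the 49 fibroblast-like cells. The fullest cell had 247 Timp1 UMIs. On day 5 monocyte-like cells were 13.9% of cells in diabetic against 3.02% in control wounds, and dendritic-like cells 12.6% against 5.87%. Macrophage-like cells went the other way, at 5.01% against 44.6%. The part of these shares and of the fibroblast-like cells in the whole-library Timp1 gap was not tested. Monocyte-like cells had 126, 96.1, 85.3 and 104 CPM in diabetic and 121, 84.3, 41.9 and 122 CPM in control wounds, the last from only 37 UMIs and that of control day 3 with 104 of 298 UMIs in 1 cell, without which dendritic-like cells (61.2 CPM) would be the highest class there, and dendritic-like cells 44.2 to 137 CPM. Monocyte-, dendritic- and macrophage-like cells exchanged the first place between libraries, and in 6 of the 8 libraries the counting intervals of the first and second class overlapped. Macrophage-like cells held 59.4% of Timp2 UMIs over all libraries, from 14.3% in diabetic day 1 to 71.0% in control day 7, and neutrophil-like cells held 59.8% and 58.3% on day 1 in diabetic and control wounds. The level in macrophage-like cells was 263, 531, 537 and 559 CPM in diabetic and 293, 529, 825 and 699 CPM in control wounds, next to osteoclast-like cells (598 to 749 CPM) and the 20 fibroblast-like cells of control day 7 (2615 CPM). Within macrophage-like cells the control excess was 1.54-fold (1.44 to 1.64) on day 5 and 1.25-fold (1.21 to 1.30) on day 7, and the difference of -0.27 (SE 0.11) had an adjusted p of 0.40 in edgeR. The share of macrophage-like cells in a library was 5.01% in diabetic day 5 against 44.6% in control day 5, and 25.8% against 50.5% on day 7, and the part of these shares in the whole-library gap was not tested.

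Adam8, the leukocyte sheddase, had its highest library values on day 1. It stood at 1285, 831, 834 and 601 CPM in diabetic and 1286, 722, 604 and 654 CPM in control wounds, and fell by 0.24 log2 per day (SE 0.048, adjusted p of 0.029 in edgeR), a call lost without day 1 (slope -0.11, adjusted p of 0.70) or day 7 (slope -0.32, adjusted p of 0.16), fits that called 0 and 1 genes in all. The diabetic library was 1.38-fold higher on day 5 (1.35 to 1.41), and the group difference of 0.17 (SE 0.18) had an adjusted p of 0.69 in edgeR. Neutrophil-like cells were the highest class in all 8 libraries, at 1687, 1344, 1342 and 1054 CPM in diabetic and 1601, 1693, 1108 and 1108 CPM in control wounds, followed by monocyte-like cells in 7 of the 8, at 508 to 1264 CPM over all 8, and by mast cell-like cells (816 CPM) in control day 3. In diabetic day 7 the intervals of the leading classes overlapped. Neutrophil-like cells were 51.4%, 49.5%, 46.1% and 21.1% of cells in diabetic and 60.0%, 42.0%, 8.28% and 23.1% in control wounds. The part of these shares in the whole-library slope was not tested. T cell-like cells, which can express this gene, had 248 to 562 CPM, and after thinning 56.7% to 67.5% of neutrophil-like cells had an Adam8 UMI against 18.8% to 33.6% of T cell-like cells (77.3% to 87.3% and 48.8% to 67.9% before thinning). Within neutrophil-like cells the slope was -0.27 per day (SE 0.055, adjusted p of 0.0029 in edgeR) and that of Mmp9 was -0.45 per day (SE 0.052, adjusted p of 2.1e-04). Adam8 lost the call without day 1 (adjusted p of 0.096) and without day 7 (0.15), and Mmp9 kept it without day 1 (0.0050) and lost it without day 7 (0.066), in fits that called 8.77% and 1.73% of all genes. The summed 10 neutrophil markers of these cells went down over the same days, from 66099 and 53515 CPM on day 1 to 17058 and 15600 CPM on day 7 in diabetic and control wounds, and their part in the slopes was not tested. With cells named one by one Mmp9 kept its call (-0.27, adjusted p of 0.0016) and Adam8 lost it (-0.11, adjusted p of 0.089).

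**Figure D4:**
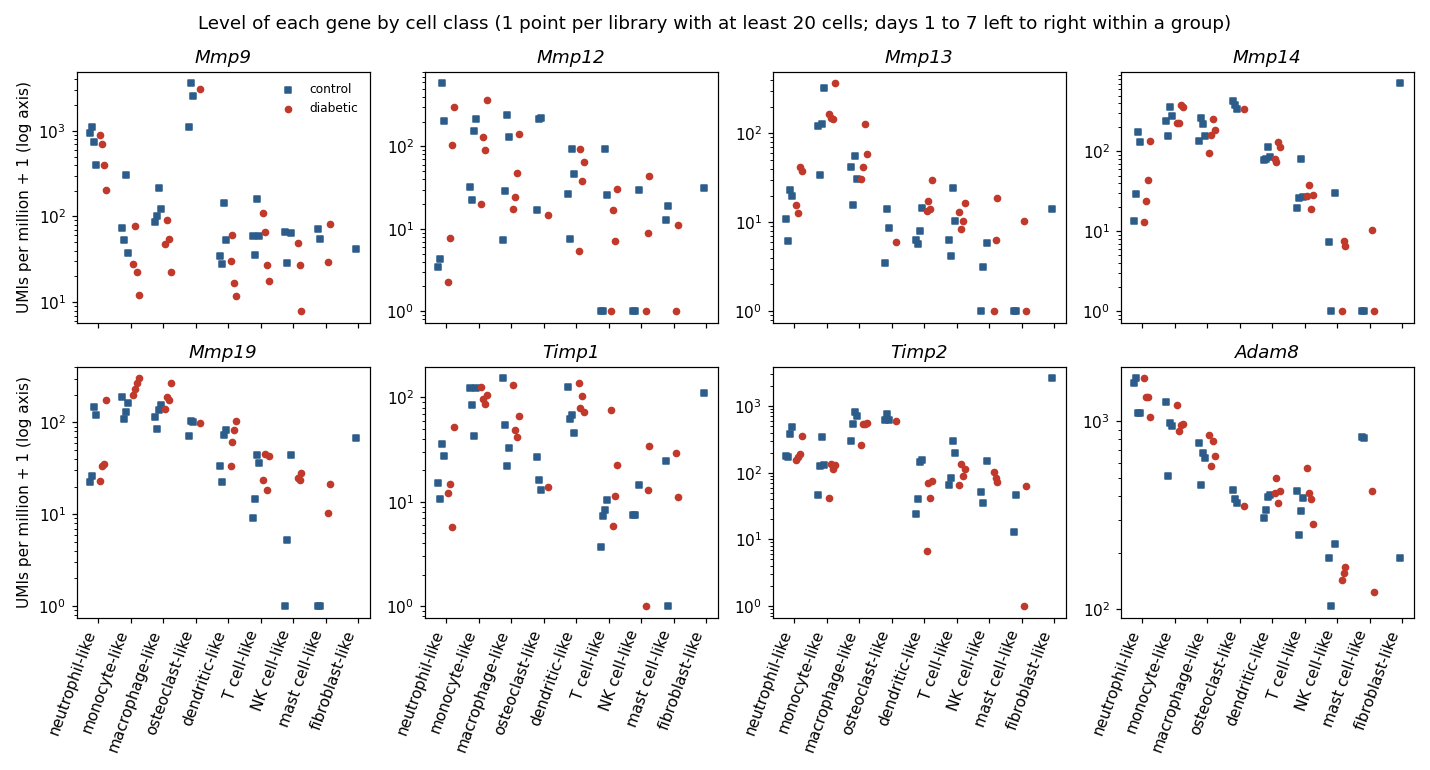
Level of each gene (CPM plus 1, log axis) in 9 named cell classes, 1 point per library with at least 20 cells of the class, control in blue squares and diabetic in red circles, days from left to right within a group. Mmp9 peaks in osteoclast-like and neutrophil-like cells, Mmp13 in monocyte-like cells, Timp2 in fibroblast-, macrophage- and osteoclast-like cells, and Adam8 in neutrophil-like cells.

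Enzyme over inhibitor is given as a ratio of UMIs within a library or class, which does not depend on the library total, although the genes may be captured unequally. In whole libraries the ratio mixes cell make-up with the level in each cell. Most Mmp9 UMIs lay in neutrophil- and osteoclast-like cells, and most Timp1 UMIs in monocyte-, macrophage- and dendritic-like cells. The ratios count transcripts of cells sorted for CD45 and not enzyme activity in the wound. There were 3.78, 7.86, 3.01 and 0.632 Mmp9 UMIs per Timp1 UMI in diabetic wounds and 5.36, 7.52, 36.0 and 7.59 in control wounds. The ratio of control day 5 was the highest and that of diabetic day 7 the lowest of the 8. Without osteoclast-like cells the ratios were 3.78, 5.30, 2.67 and 0.592 in diabetic and 5.36, 6.73, 9.97 and 4.78 in control wounds. For the 5 Mmp genes over both Timp genes the values were 3.66, 2.32, 2.59 and 1.5 in diabetic and 3.65, 1.98, 2.21 and 1.08 in control wounds, highest on day 1 and lowest on day 7 in both groups. The groups were close on day 1, and the diabetic value was the higher one on days 3, 5 and 7. Within macrophage-like cells this ratio stayed between 0.806 and 1.14, and in neutrophil-like cells it lay at 5.75, 4.20, 3.16 and 2.10 in diabetic and 5.23, 6.32, 3.99 and 1.70 in control wounds. There were 1.33, 0.472, 0.996 and 0.485 Mmp14 UMIs per Timp2 UMI in diabetic and 1.03, 0.555, 0.353 and 0.255 in control wounds. The control value was lower on each later day, and the diabetic value was higher on day 5 than on day 3.

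**Figure D5:**
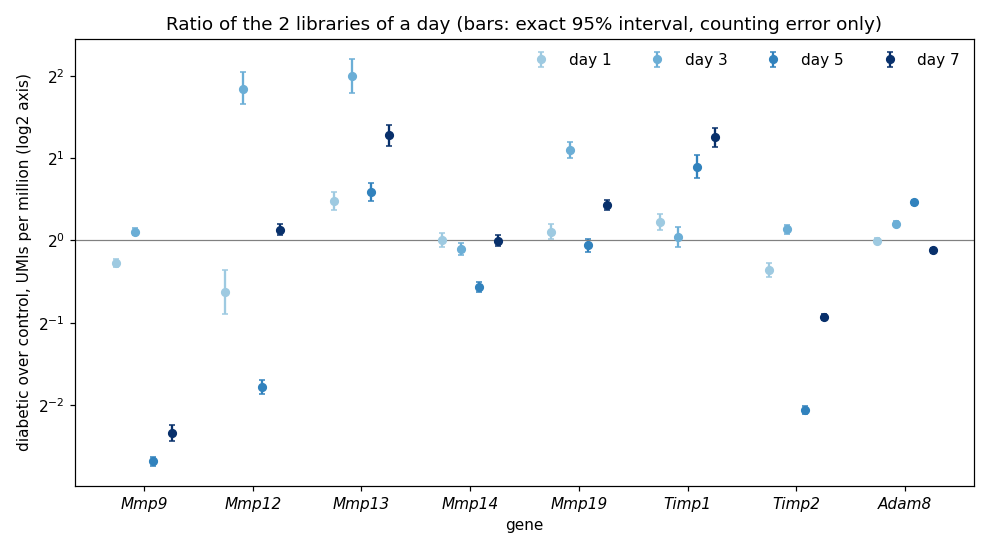
Diabetic over control level of each gene on each day (log2 axis, line at 1), with exact 95% intervals that cover counting error only, 1 library per group and day. Mmp13 lies above 1 on all 4 days, and Mmp9 and Timp2 reach 0.156 and 0.24 on day 5.

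Counted over the genes, 0 of the 8 differed between groups in whole libraries in edgeR (0% of 13857 genes did), with 2 of 8 at an unadjusted p of at most 0.05 against 11% of all genes, and 1, Mmp13, in DESeq2, against 0.628%. In neutrophil-, monocyte-, macrophage- and dendritic-like cells 0 of 8 passed as well (background 0.0184%, 0%, 0.0454% and 0.0101%), with 1, 3, 4 and 4 at an unadjusted p of at most 0.05 (background 10.1%, 6.72%, 11.5% and 5.93%) and 0, 1, 1 and 0 in DESeq2 (background 0.452%, 0.167%, 0.917% and 0.111%). Over days, 2 of 8 passed in whole libraries (background 10.3%), 5 of 8 in neutrophil-like (42.7%), 1 of 8 in monocyte-like (0.535%), 1 of 8 in macrophage-like (2.19%) and 0 of 8 in dendritic-like cells (0.22%), where 4 had an unadjusted p of at most 0.05 (11.7%). In DESeq2 the slope passed for 5, 5, 1, 2 and 2 of the 8 in the same order (background 21.4%, 44.5%, 2.73%, 5.15% and 1.7%). The median of the 8 slopes was -0.092 in whole libraries and 0.098 in neutrophil-like cells, beside 0.016 and 0.018 over all genes tested. Scaling by library totals moved the median slope of all genes in neutrophil-like cells to 0.18 per day and gave 8 calls, 6 up and 2 down, with 52.2% of all genes called.

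Other genes of the pathway were counted in lists of proteases, inhibitors, activators and substrates. Of 42 tested between groups in whole libraries 0 passed in edgeR. Over days, 7 of the 42 rose and 8 fell (10.3% of all genes were called), although 0 genes were called without day 1 and 1 without day 7. The activation, docking and clearance list held 6 of those that fell, among them Serpinb2, an inhibitor of plasminogen activators, at -0.82 per day (SE 0.16), Lcn2, which binds Mmp9 in neutrophil granules, at -0.61 (SE 0.14), and the urokinase receptor gene Plaur at -0.28 (SE 0.052), with adjusted p of 0.028, 0.034 and 0.026 in edgeR. Neutrophil-like cells were 51.4% and 60.0% of cells on day 1 and 21.1% and 23.1% on day 7 in diabetic and control wounds. Monocyte-like cells went from 33.6% and 26.2% to 4.81% and 0.774%. The part of these shares in the falls was not tested. The matrix substrates held 4 that rose, with Col3a1 at 1.012 (SE 0.20, adjusted p of 0.028) and Tnc at 1.00 (SE 0.27, adjusted p of 0.048), and 1 that fell, Spp1, at -0.33 (SE 0.082, adjusted p of 0.042). Summed fibroblast markers of the whole libraries, 7 genes, stood at 70.3, 18.6, 14.9 and 812 CPM in diabetic and 16.3, 97.0, 234 and 1619 CPM in control wounds. The sum includes Col1a2, itself among the substrates that rose, and Col1a1, alone at 319 CPM in diabetic and 716 CPM in control day 7. It is thus no separate measure of fibroblasts, and their part in the collagen slopes was not tested. In neutrophil-like cells 11 of 29 rose and 11 fell (42.7% of all genes called), in monocyte-like cells 4 of 26 rose and 0 fell (0.535%), in macrophage-like cells 3 of 31 rose and 3 fell (2.19%), and in dendritic-like cells 3 of 25 rose and 0 fell (0.22%). Collagen genes were among those that rose in each of the 4 classes, with Col1a1, Col1a2 and Col3a1 called in all of them. Whole-library Col1a1 rose over the same days, from 26.4 and 8.24 CPM on day 1 to 319 and 716 CPM on day 7 in diabetic and control wounds. The source of the collagen UMIs in these classes, free RNA and doublets included, was not tested.

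On chromosome 9, the neighbour with the most UMIs was Mmp8, the neutrophil collagenase, with 26928. Its level was 563, 210.0, 66.2 and 51.2 CPM in diabetic and 236, 74.7, 29.4 and 52.6 CPM in control wounds, highest on day 1 in both groups, and it fell by 0.55 log2 per day (SE 0.092, adjusted p of 0.024 in edgeR), with an adjusted p of 0.63 without day 1, where 0 genes were called, and of 0.019 without day 7, where it was the 1 gene called. Mmp3 had 1217 UMIs, mostly on day 7, at 14.9 CPM in diabetic and 22.6 CPM in control wounds. Mmp27 had 616, Mmp10 126, Mmp20 13 and Mmp7 5 UMIs over all cells.

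The genes whose pattern was most like each of the 8 were ranked by Pearson's r of log2(CPM + 1) over 55 sums of a class in a library, among 5893 genes. The sums share libraries and differ in depth, so r is given as a description. Mmp13 went with Cxcl1 (0.86), Pdpn (0.86) and Adap2 (0.84). Mmp14 went with Fkbp1b, Rin2 and Tnfrsf11a (0.90, 0.90 and 0.89), Mmp19 with Slc38a7 and Stom (both 0.92), and Adam8 with Ccr1 (0.92), Plaur (0.90) and Cxcl2 (0.89). For Timp2 these were Hbegf, Olfml3 and Trem2 (0.80, 0.80 and 0.79), for Timp1 Ifi205 (0.88), for Mmp12 Fcgr2b (0.80) and for Mmp9 Snx10 (0.70). Among the 8 genes themselves the highest r was that of Mmp14 with Mmp19 (0.83), and the lowest that of Mmp9 with Timp1 (-0.26).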

How the data were processed

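Deposited values were whole UMI counts per gene and cell, made by the authors with fastp 0.20.1, UMI-tools and STAR. The methods name a BD Rhapsody system where the series record names 10X Genomics, and an Ensembl mouse genome where the submitters' processing notes name mm9. Coordinates here are those of GENCODE M21 (GRCm38). All columns of per-sample values were used. Cells were clustered with scanpy 1.11.5 (leidenalg 0.10.2, Python 3.11.15) and named from marker lists. UMIs were summed per library, or per library and class of at least 20 cells, and tested over all genes with edgeR 4.0.16 (R 4.3.3) at an adjusted p of 0.05, with the day as a block for the group difference and the group as a block for the slope over days. DESeq2 1.42.0 was an alternative, beside scaling by library totals, no filter, no block, a left-out day, other cluster resolutions, cells named one by one, metalloproteinase genes kept in the clustering, a stricter gene minimum and doublets removed. On simulated counts with 200 changed genes, 89.9% (whole libraries) of genes with a log2 difference of 2 and 92.5% with a slope of 0.5 per day were recovered. Apart from the changed genes, the simulation gave each gene the same mean share of every library and the trended dispersion. It held no other day effects and no shifts in cell make-up. These percentages therefore check the procedure and do not give the power of the tests on the real libraries. Scrublet marked only 0.0209% to 0.935% of cells, and no doublet rate was measured in another way, so doublets may remain. Cell barcodes were running codes, so sharing between libraries could not be counted. Thinned shares are the expected share of cells with a UMI at 1000 UMIs per cell. The genes, lists and tests were chosen with earlier results of these data known; the genes named are the 8 members, up to 5 pathway genes called in each direction and the 3 most like each member. Promoters are from RefSeq (GRCm38.p6).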

Additional observations from a re-analysis of the deposited data

Results flagged for a closer look

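For 4 genes the diabetic library was higher on 1 day and lower on another, with intervals that cover counting error only; the difference between days was not tested, since there is 1 library per group and day. Mmp9 had a diabetic over control ratio of 1.08 on day 3 and 0.156 on day 5; without osteoclast-like cells the ratio was below 1 on all 4 days, at 0.826, 0.822, 0.452 and 0.288. Mmp12 had 3.59 on day 3 and 0.29 on day 5, Timp2 had 1.10 on day 3 and 0.24 on day 5, and Adam8 had 1.38 on day 5 and 0.919 on day 7.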

How the results depend on the processing

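Of the tests of single genes under an alternative, 356 of 395 kept their direction and side of the threshold, 16 lost the call, 16 gained one and 7 turned direction; the cause was not tested. The number of the 8 genes called for the group difference was 1 in DESeq2 in whole libraries, monocyte-like and macrophage-like cells; with no filter on low counts it was 1 in neutrophil-like, 3 in monocyte-like, 4 in macrophage-like and 3 in dendritic-like cells (0.961%, 0.588%, 1.63% and 0.655% of all genes called); with metalloproteinase genes kept in the clustering it was 1 in macrophage-like cells (0.0455%); and without 1 day it was 0 to 1 in monocyte-like and in macrophage-like cells (0% to 0.114% and 0% to 0.0714%). For the slope over days it was, in whole libraries, 5 in DESeq2, 3 with library totals (17.9%), 4 without the control library of day 5 (11.8% of all genes) and 0 to 3 without 1 day (0% without day 1, 8.21% without day 3, 12.4% without day 5 and 0.00753% without day 7, so the 0 without day 1 or 7 says nothing of these genes); in neutrophil-like cells, 8 with library totals (52.2%), 2 with cells named one by one (8.44%) and 2 to 5 without 1 day (1.73% to 46.0%); in monocyte-like cells, 3 with no filter (2.35%), 2 with cells named one by one (2.005%) and 0 to 1 without 1 day (0.0548% to 2.84%); in macrophage-like cells, 2 in DESeq2, 3 with no filter (2.9%) and 0 to 3 without 1 day (0.544% to 3.59%); in dendritic-like cells, 2 in DESeq2, 3 with no filter (2.08%), 1 with library totals (0.409%), without the control library of day 5 (0.704%), at resolution 1.6 (0.262%) or with metalloproteinase genes kept (0.325%), and 0 to 3 without 1 day (0.0531% to 0.853%). The Mmp12 difference in whole libraries turned to 0.44 without the control library of day 5, and ranged from -0.73 to 0.45 when 1 day was left out, above 0 without day 1 (0.11) or day 5 (0.45). That of Mmp19 in neutrophil-like cells turned to 0.33 without that library, 0.32 with cells named one by one and 0.018 with metalloproteinase genes kept, and ranged from -0.40 to 0.33 when 1 day was left out, above 0 without day 5. With a mean over cells the ratio was 0.776 for Mmp9 on day 3 and 0.96 for Mmp13 on day 5. The class with the highest level was the same in fewer of the 8 libraries for Mmp12 (5 thinned, 5 without the 10 fullest cells, 5 at resolution 1.6, 1 named one by one), Mmp13 (5 without the 10 fullest cells), Mmp14 (4 named one by one), Mmp19 (5 under each of the last 3), Timp1 (5, 3, 4 and 2, as for Mmp12) and Timp2 (4 named one by one). Leaving out the control library of day 5, the 10 fullest cells or, for Mmp9 over Timp1, the osteoclast-like cells, and naming cells one by one for the Mmp9 ratio, was chosen after seeing the data. The group difference pairs the libraries by day; without the day as a block it called 0 of the 8 genes, and 0% of all genes, in whole libraries and in each of the 4 classes.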
